A study of Mus musculus with 12 samples.

Results

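The effect of the c-MET/β-catenin oncogene pair on the liver transcriptome was examined in mice kept on chow diet (CD). The comparison took the 3 CD c-MET/β-catenin libraries (oncogene livers) against the 3 CD empty vector (Vec) libraries, which are 6 of the 12 libraries in the series. Groups were taken from the titles in the labels, which name chow, the oncogenes and, for the vector controls, WT. The other 6 libraries repeat the same contrast on a low-protein diet (LPD), with Vec livers of their own, and serve here only to show where the response on CD differed.

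The oncogene livers carried human c-MET together with a Myc-tagged, N-terminally truncated β-catenin that escapes degradation (ΔN90-β-catenin), each under the EF1α promoter. Both plasmids entered hepatocytes by hydrodynamic tail vein injection and were inserted into the genome by Sleeping Beauty transposase, whereas the Vec livers received empty vector by the same route. The mice were male and 8 weeks old when diets began, with 1 week of diet before the injection. Livers were taken at the end point of the CD c-MET/β-catenin mice. The study's methods name the strain as C57/Bl3 males, whereas its account of the model gives a 129/Ola and C57BL/6 mixed background. Only a part of the hepatocytes takes up plasmid, so each library mixes transfected and untransfected cells with all other cells of the liver. The share of tumor in each sample is not given in the sources used here. In such bulk RNA, fewer cells of a type and less RNA per cell cannot be told apart.

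Hepatocytes divide labor along the liver lobule. Those near the portal vein (periportal, zone 1) make urea and glucose and break down amino acids, whereas those around the central vein (pericentral, zone 3) receive Wnt signals from endothelial cells, keep β-catenin active and make glutamine. β-catenin with Tcf/Lef factors turns on its targets in the nucleus, and c-MET, the receptor for hepatocyte growth factor, signals through the ERK and PI3K pathways. Adult hepatocytes rarely divide and devote most of their RNA to plasma proteins and metabolic enzymes.

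The 6 CD libraries held 20369103 to 31990267 counts over genes. Replicates of a group differed far beyond counting noise (chi-square of 42.5 to 162 per gene), so none was a repeat of another, and their Pearson correlations over genes were 0.961 to 0.98. Along the first principal component, with 68.7% of the variance, Vec livers lay at -83.5 to -53.2 and oncogene livers at 57.6 to 74.5. Vec replicate 2 lay apart on the second component (12.2% of the variance). A dataset number in the table's header sets Vec replicates 1 and 2 in one run of numbers, c-MET/β-catenin replicates 1 and 2 in another, and replicate 3 of both groups in another again, so for replicates 1 and 2 the run and the group cannot be told apart. No other library shares the run of c-MET/β-catenin replicates 1 and 2. With the run as a term, replicate 3 is therefore the only oncogene liver that informs the CD contrast. A call kept or lost under that term cannot be assigned to the run. A model with the run as a term called 945 genes (6.78%, against 4933 without it), 642 higher (4.6%) and 303 lower (2.17%), and its counts are given with the gene lists and families below. Of the genes called without that term, 4895 (99.2%) had the same sign between the replicate 3 libraries, which share a run but are also part of the fit. The labels give hepatocyte as the cell type. Summed over 10 hepatocyte markers, the level was 105821 to 108969 CPM (counts per a fixed library total, after scaling between libraries) in Vec livers and 90777 to 96098 CPM in oncogene livers, without overlap. Of these markers 5 were called lower and none higher (median -0.58, none with the run term, and 2 lower and 1 higher with total-count scaling), and the part of this difference in the falls of hepatocyte genes below was not tested. Markers of endothelial, stellate and Kupffer cells were present in each library. Mouse Met had 111, 63.1 and 106 CPM in Vec and 61.5, 92.6 and 80.3 CPM in oncogene livers, and Ctnnb1 had 277, 221 and 264 CPM against 263, 347 and 349.8 CPM. Neither was called, although Met was lower without Vec replicate 2 (-0.48, adjusted p = 0.0349 by edgeR) and Ctnnb1 higher without c-MET/β-catenin replicate 1 (0.45, adjusted p = 0.03 by edgeR). These values do not check the transgenes, since reads of the human c-MET insert and of the truncated β-catenin are not separated in a table of mouse genes.

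Of 13947 genes tested, 4933 (35.4%) differed at an adjusted p under 0.05 by the quasi-likelihood test of edgeR, 2603 (18.7%) higher and 2330 (16.7%) lower in the oncogene livers. At an unadjusted p under 0.05 there were 6294. The CPM ranges of the 2 groups did not overlap in 5942 genes (42.6%). The median log2 fold change over all tested genes was -0.01, and that of called genes was 1.09 in absolute size. Large rises were more common than large falls. Changes of at least 2-fold were called for 1729 genes upward (12.4%) and 930 downward (6.67%), and changes of at least 4-fold were called for 877 genes upward (6.29%) and 266 downward (1.91%). The direction went with the level of expression. Among 1506 genes with a mean over 100 CPM, 11.9% were higher and 38.6% lower, whereas among 4294 genes between 1 and 10 CPM 26.6% were higher and 10.3% lower. The livers within a group were about equally alike, with a median SD of log2 CPM of 0.3 in Vec livers and 0.26 in oncogene livers. Under scaling by total counts, without the trimmed mean correction, the median over all tested genes was 0.278, and 78.8% of calls were higher in place of 52.8%. There 4469 genes (32.0%) were called higher and 1201 (8.61%) lower, which is the background for the counts given below with total-count scaling. The p-values throughout measure the spread between these 6 livers together with that within the LPD groups, which share the fit.

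**Figure D1:**
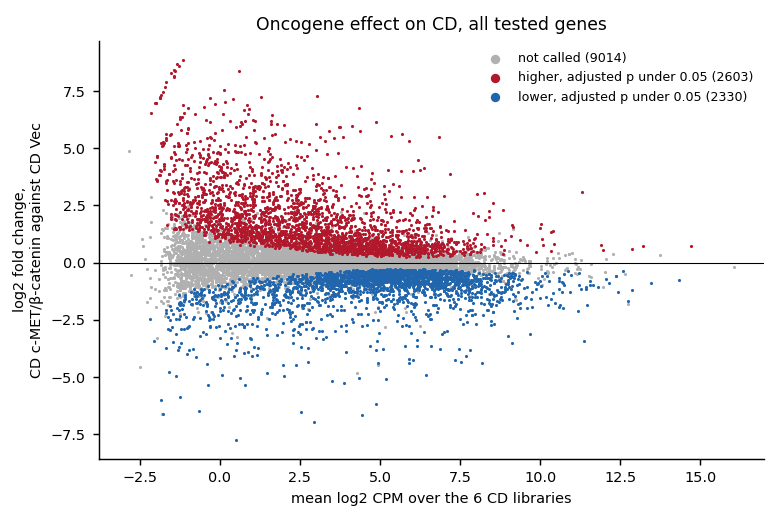
Log2 fold change of each of the 13947 tested genes (y axis, CD c-MET/β-catenin against CD Vec) against its mean log2 CPM over the 6 CD libraries (x axis), with 2603 genes called higher in red and 2330 called lower in blue. Called rises spread furthest at low levels and called falls reach into the most abundant genes, while the curved row of points at the upper left holds genes at or near 0 counts in a group, whose fitted fold changes are no measure of size.

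All 30 genes of the mitosis list were called higher, with a median log2 fold change of 4.10, and 27 of them were called with the run term. Mki67, which marks cycling cells, had 1.32, 1.08 and 3.96 CPM in Vec livers and 48.0, 53.8 and 68.5 CPM in oncogene livers (log2 fold change 4.73 ± 0.53 (SE), adjusted p = 9.72e-05). Top2a, the topoisomerase that untangles replicated chromosomes, had 0.866, 0.569 and 2.24 CPM in Vec and 24.3, 27.2 and 38.7 CPM in oncogene livers (4.60 ± 0.46, adjusted p = 4e-05). For Ube2c, the ubiquitin-conjugating enzyme that works with the anaphase-promoting complex, the values were 0.204, 0.284 and 1.15 CPM against 17, 12 and 19 CPM (4.86 ± 0.58, adjusted p = 0.000109). The lowest oncogene liver exceeded the highest Vec liver for each of these genes. Vec replicate 3 was the highest of the Vec livers in all of them, and c-MET/β-catenin replicate 3 the highest of its group. The mitotic kinesin Kif11 rose by 3.33 ± 0.30 on the log2 scale, and of 35 kinesin genes tested 20 were higher and 1 lower (median 1.26, 13 higher with the run term).

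Mitotic genes are often driven through a paired promoter layout in which a CCAAT box lies upstream of a cell cycle homology region (CHR). Promoters from RefSeq (GRCm38.p6, 250 bases before to 50 after the start) were searched on both strands for CCAAT and for the CHR letters TTTGAA, and 26 of the 30 mitotic genes had 28 promoters in the table. The CHR letters were found in 21 of these 28 (75.0%), against 17.9% of all 32851 promoters and 15.5% of those of genes called at least 2-fold higher. CCAAT was found in 22 (78.6%), against 37.4% of all promoters. Both lay within the 150 bases upstream of the start in 10 promoters of 9 genes. Those of 4 strongly raised genes are printed below, 5′ to 3′ on the strand of the gene, with each copy of CCAAT or TTTGAA in capitals, or its reverse complement where the copy is on the other strand.
Ube2c: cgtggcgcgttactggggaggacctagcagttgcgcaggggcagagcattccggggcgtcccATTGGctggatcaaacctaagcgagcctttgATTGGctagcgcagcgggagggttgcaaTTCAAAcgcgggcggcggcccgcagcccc
Mki67: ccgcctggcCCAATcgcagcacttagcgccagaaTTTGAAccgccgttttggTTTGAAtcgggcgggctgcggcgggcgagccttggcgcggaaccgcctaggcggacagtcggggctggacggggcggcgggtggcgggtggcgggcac
Top2a: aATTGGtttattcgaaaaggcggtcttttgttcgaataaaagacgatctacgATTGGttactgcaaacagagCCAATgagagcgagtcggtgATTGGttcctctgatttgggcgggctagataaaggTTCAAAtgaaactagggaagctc
Prc1: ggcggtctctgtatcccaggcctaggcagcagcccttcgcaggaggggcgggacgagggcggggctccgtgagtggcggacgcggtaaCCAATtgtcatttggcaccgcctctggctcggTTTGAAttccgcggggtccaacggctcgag

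The Ube2c window is chr2:164769779-164769928 on the plus strand and holds 1 copy of TTTGAA, 29 bases before the start, below 2 CCAAT boxes. Prc1, whose product bundles the spindle midzone, has the same order of elements at chr7:80294326-80294475 (plus strand), with the CHR letters 30 and CCAAT 62 bases before the start. The windows of Top2a (chr11:99024190-99024339) and Mki67 (chr7:135716380-135716529) are on the minus strand. Top2a has 4 CCAAT boxes, whereas Mki67 has 2 copies of TTTGAA further from its start, the nearer at 98 bases. Among promoters of the replication genes, the CHR letters were in 5 of 32 (15.6%), near the share in all promoters, and CCAAT was in 19 of 32 (59.4%).

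Genes of DNA replication had a smaller median than those of mitosis. Of 32 tested, 20 were called higher and 1 lower (median 0.81), and 5 were called higher with the run term. Lig1, the ligase that joins Okazaki fragments, had 4.28, 1.71 and 4.43 CPM in Vec and 8.69, 16 and 22 CPM in oncogene livers (2.16 ± 0.41, adjusted p = 0.0017). Rrm2, the inducible subunit of ribonucleotide reductase, had 4.69, 5.46 and 4.84 CPM against 45.6, 9.75 and 21.2 CPM (2.35 ± 0.43, adjusted p = 0.0015). Groups were separate for both genes, although the Rrm2 level of c-MET/β-catenin replicate 1 was far above the others. Several S-phase genes sat at considerable levels in Vec livers and did not pass the test. Pcna, the replication clamp, had 25.6, 23.2 and 23.7 CPM in Vec and 21.8, 23.8 and 33.9 CPM in oncogene livers (0.13 ± 0.17, adjusted p = 0.575). Mcm10, which helps activate the replicative helicase, was the exception in direction, with 96.5, 335 and 149 CPM in Vec against 17.6, 28.8 and 23.5 CPM (-3.06 ± 0.41, adjusted p = 0.000265). Of 15 genes of homologous recombination and checkpoints, 8 were higher and none lower (median 1.70, 2 with the run term).

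The p53 targets were also raised, with 12 of 15 called higher, none lower and a median of 0.92, of which 1 was called with the run term. Cdkn1a, the cyclin-dependent kinase inhibitor p21, had 2.39, 1.31 and 6.98 CPM in Vec and 242, 22.8 and 36.0 CPM in oncogene livers (4.81 ± 0.91, adjusted p = 0.00214). The pro-apoptotic gene Bax was more even, with 21.1, 26.6 and 22.9 CPM against 44.5, 45.0 and 42.1 CPM (0.90 ± 0.14, adjusted p = 0.000547). Phlda3, an inhibitor of Akt, rose by 3.04 ± 0.35 and was the member called with the run term. No Vec liver reached the lowest oncogene liver for any of these 3 genes, and for Cdkn1a c-MET/β-catenin replicate 1 stood far above replicates 2 and 3.

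**Figure D2:**
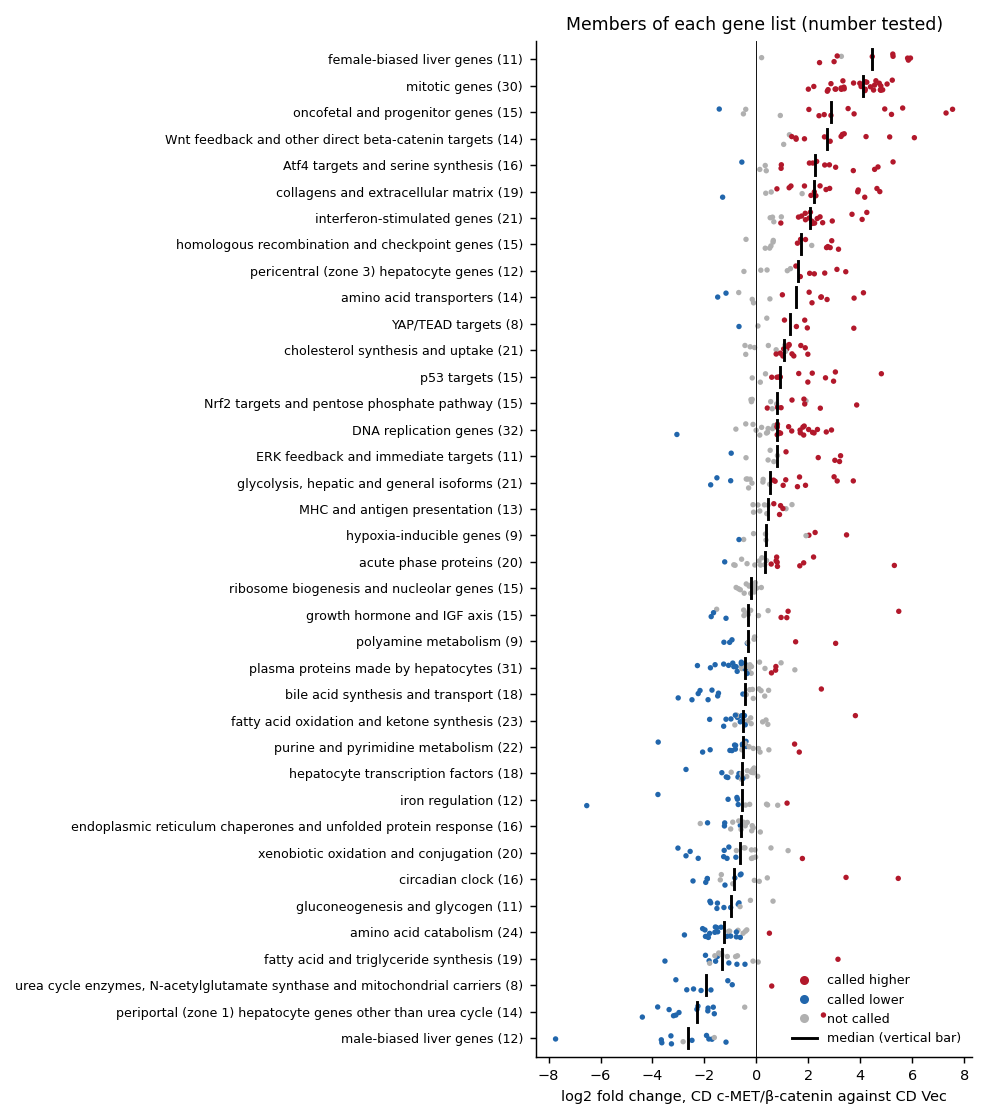
Log2 fold change of every tested member (points) of 38 gene lists, CD c-MET/β-catenin against CD Vec, with called members in red (higher) or blue (lower), members that were not called in grey and a black bar at the list's median. All 30 mitotic genes lie to the right of 0, and 12 of 14 periportal genes other than the urea cycle are called to the left of it.

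Targets of β-catenin rose together. In the list of Wnt feedback genes and other direct targets, 12 of 14 tested were called higher and none lower (median 2.73), and 11 were called with the run term. Lef1, one of the DNA-binding partners of β-catenin, had 0.204, 0.114 and 0.260 CPM in Vec and 8.14, 7.83 and 5.05 CPM in oncogene livers (5.13 ± 0.43, adjusted p = 1.96e-05). Its relative Tcf7 had 2.95, 3.07 and 4.06 CPM against 33.7, 37.9 and 28.5 CPM (3.31 ± 0.20, adjusted p = 5.91e-06). Levels were alike among the 3 oncogene livers for both factors and far from those of the Vec livers. Members that encode inhibitors of the pathway and were called higher include Nkd1, which binds Dishevelled (4.22 ± 0.40), the ubiquitin ligase Znrf3, which removes Wnt receptors (1.36 ± 0.13), the secreted enzyme Notum (1.52 ± 0.22) and the membrane protein Apcdd1 (6.08 ± 0.61), whereas the inhibitor Dkk1 was at 0 in all 6 libraries and was not tested. Myc, the oncogenic transcription factor, had 1.58, 1.65 and 16 CPM in Vec and 25.4, 8.04 and 6.29 CPM in oncogene livers, and with such overlap it did not pass (1.05 ± 0.78, adjusted p = 0.326). Without Vec replicate 3, the outlying Vec liver, Myc was called higher (3.04, adjusted p = 0.0033).

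Downstream of c-MET, 5 of 11 genes that respond to or restrain ERK were called higher and 1 lower (median 0.81), and 3 were called higher with the run term. With total-count scaling 8 were higher and none lower. Those called higher include the ERK phosphatases Dusp5, with 0.662, 0.512 and 1.04 CPM in Vec and 8.29, 6.94 and 5.39 CPM in oncogene livers (3.20 ± 0.33, adjusted p = 4.4e-05), and Dusp4 (2.38 ± 0.31). Dusp6 had 58.3, 49.9 and 25.5 CPM against 84.3, 92.5 and 118 CPM (1.14 ± 0.30, adjusted p = 0.011). The groups did not overlap for these phosphatases. Of 8 targets of YAP, the effector of the Hippo pathway, 5 were higher and 1 lower (median 1.31), with none higher with the run term.

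Of 18 genes of the fetal liver and of liver tumors, 15 were tested. Of these 11 were called higher and 1, the imprinted gene Peg3, lower (median 2.87, with 7 called higher with the run term). H19, an imprinted noncoding RNA of the fetal liver, had 0.968, 0.455 and 0.469 CPM in Vec and 75.0, 93.6 and 134 CPM in oncogene livers (7.30 ± 0.63, adjusted p = 2.76e-05). Afp, the fetal albumin homolog used as a tumor marker, had 5.09, 3.24 and 17.6 CPM against 370.2, 671 and 245 CPM (5.63 ± 0.81, adjusted p = 0.000435). Gpc3, a cell surface proteoglycan and tumor marker, had 0.815, 1.25 and 2.50 CPM against 49.5, 67.1 and 23.8 CPM (4.94 ± 0.76, adjusted p = 0.000583). Separation between the groups was complete for all of them. Of the 3 untested genes, Lin28b and Igf2bp1 were at 0 counts in all 6 libraries and Trim71 had 3 counts in 1 of them, and members close to silent in Vec livers could pass the filter only through the oncogene livers. Progenitor markers were not counted apart from the list. As examples, Prom1 (CD133) rose by 5.20 ± 0.46, whereas Sox9 did not pass (-0.41 ± 0.35). Sox9 had 5.76, 6.08 and 4.22 CPM in Vec and 6.30, 3.88 and 1.83 CPM in oncogene livers.

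The genes with the largest rises at a mean of at least 5 CPM came from many classes. The steroid-metabolizing aldo-keto reductase Akr1c18 had 1.99, 0.796 and 3.38 CPM in Vec and 208, 229 and 243 CPM in oncogene livers (6.77 ± 0.59, adjusted p = 2.99e-05). Arnt2, a partner of bHLH-PAS transcription factors, had 0.204, 0 and 0.208 CPM against 13.2, 24.8 and 14.3 CPM (6.89 ± 0.57, adjusted p = 1.73e-05). The membrane-bound carbonic anhydrase Car4 had 0.255, 0 and 0.312 CPM against 12.9, 50.1 and 26.1 CPM (7.22 ± 0.80, adjusted p = 8.99e-05). These genes were close to silent in the Vec livers and of moderate level in all 3 oncogene livers. Carbonic anhydrases went both ways, with 3 of 12 higher and 6 lower, or 2 higher and none lower with the run term. Car2, a cytosolic form, rose by 3.39 ± 0.23, and Car3, one of the abundant carbonic anhydrases of liver, fell from 823, 642 and 854 CPM to 29.2, 196 and 255 CPM (-2.27 ± 0.59, adjusted p = 0.0118). The gut-type cadherin Cdh17 (6.44 ± 0.87) and the secreted ligand Bmp8b (6.19 ± 0.59) were further members of this set. In absolute terms per kilobase of exon, Glul, which makes glutamine from glutamate and ammonia, was among the 10 with the largest rise, from 888, 745 and 994 CPM to 8611, 7323 and 6637 CPM.

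Pericentral genes were higher and periportal genes lower in the oncogene livers. Of 12 pericentral genes, 7 were higher and none lower (median 1.61, 6 with the run term), and of 14 periportal genes other than the urea cycle, 12 were lower and 1 higher (median -2.27, 6 lower with the run term). Slc1a2, a glutamate transporter of the cells around the central vein, had 111, 167 and 184 CPM in Vec and 659, 1231 and 972 CPM in oncogene livers (2.63 ± 0.27, adjusted p = 4e-05). Rhbg, an ammonium channel, had 6.88, 16.5 and 16.5 CPM against 121, 163 and 149 CPM (3.44 ± 0.36, adjusted p = 5.63e-05). The pericentral program was not raised as a block. Cyp2e1, the ethanol-oxidizing cytochrome, had 5783, 11274 and 6977 CPM in Vec and 3865, 7966 and 5348 CPM in oncogene livers (-0.48 ± 0.30, adjusted p = 0.238). The groups overlapped in this abundant gene.

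On the periportal side, Cyp2f2, a cytochrome of zone 1, had 1177, 1509.9 and 1367 CPM in Vec and 57.2, 48.6 and 87.8 CPM in oncogene livers (-4.39 ± 0.23, adjusted p = 2e-06). Hal, which starts histidine breakdown, had 267, 192 and 257 CPM against 17.6, 16 and 36.0 CPM (-3.36 ± 0.32, adjusted p = 3.32e-05). Gls2, the liver glutaminase that frees ammonia from glutamine, had 400.2, 326 and 466 CPM against 35.5, 19.4 and 84.0 CPM (-3.10 ± 0.46, adjusted p = 0.000459). Every oncogene liver was well below every Vec liver for these enzymes, and c-MET/β-catenin replicate 3 was the highest oncogene liver in each. Cdh1, which encodes E-cadherin and is more abundant in periportal hepatocytes, went the other way, with 11.8, 10.9 and 23.8 CPM against 106, 89.9 and 83.7 CPM (2.58 ± 0.36, adjusted p = 0.000285).

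Genes of amino acid breakdown fell along with the periportal genes. Of 24 catabolic enzymes, 17 were lower and 1 higher (median -1.25, 4 lower with the run term). Tdo2, which opens the tryptophan ring, had 1327, 1131 and 1488 CPM in Vec and 287, 299 and 432 CPM in oncogene livers (-1.96 ± 0.22, adjusted p = 7.93e-05). Glycine decarboxylase, Gldc, had 197, 81.9 and 174 CPM against 26.9, 8.28 and 30.9 CPM (-2.77 ± 0.46, adjusted p = 0.000979). Aass, an enzyme of lysine breakdown, fell by 1.90 ± 0.24 on the log2 scale. The 2 groups did not overlap in any of these 3, but they did in the tyrosine enzyme Tat (-0.42 ± 0.29) and in the folate-independent methyltransferase Bhmt, at 1328, 1887 and 2511 CPM against 1541, 126 and 1128 CPM, neither of which was called. Of the 8 genes of the urea cycle and its carriers 7 were lower and 1 higher (median -1.94, 2 with the run term).

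Among targets of the stress factor Atf4 and genes of serine synthesis, 12 of 16 were higher and 1 lower (median 2.25, 5 higher with the run term). Psat1, the second enzyme of serine synthesis, had 2.19, 0.171 and 2.24 CPM in Vec and 42.4, 47.7 and 29.7 CPM in oncogene livers (4.68 ± 0.62, adjusted p = 0.000251). Asns, asparagine synthetase, had 0.968, 0.284 and 1.72 CPM against 8.38, 19.2 and 12.7 CPM (3.73 ± 0.62, adjusted p = 0.000942). Mthfd2, the mitochondrial one-carbon enzyme of proliferating cells, had 0.968, 2.10 and 2.86 CPM against 15.7, 15.3 and 18 CPM (3.05 ± 0.45, adjusted p = 0.0004). These enzymes were low in Vec livers and higher in each oncogene liver. Atf4 itself was not called (0.34 ± 0.23), except without Vec replicate 2 (0.68, adjusted p = 0.0156), and neither endoplasmic reticulum chaperones nor other genes of the unfolded protein response rose. Of those 16 genes 0 were higher and 4 lower, none with the run term and 2 with total-count scaling. That count was 2 without c-MET/β-catenin replicate 1 or 2, 8 without Vec replicate 1 and 7 without Vec replicate 3. The chaperone Hspa5 had 827, 3432 and 897 CPM in Vec livers, with Vec replicate 2 far above the rest, and 1209, 639.8 and 750.1 CPM in oncogene livers. It was called lower only when Vec replicate 1 (-1.31, adjusted p = 0.0388) or Vec replicate 3 (-1.29, adjusted p = 0.0488) was left out.

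Transporters split by direction. Of 14 amino acid transporters, 8 were higher and 2 lower (median 1.51, 3 higher and 1 lower with the run term). The glutamine and neutral amino acid exchanger Slc1a5 had 1.63, 1.76 and 1.93 CPM in Vec and 23.2, 32.3 and 16.7 CPM in oncogene livers (3.76 ± 0.31, adjusted p = 1.73e-05). Slc7a5, the large neutral amino acid transporter LAT1, had 3.52, 1.88 and 4.48 CPM against 17, 24.4 and 13.9 CPM (2.48 ± 0.34, adjusted p = 0.000247). Slc38a4 and Slc38a3, which supply normal hepatocytes with alanine and glutamine, were the 2 that fell (-1.49 ± 0.20 and -1.17 ± 0.23). All 4 transporters separated the groups.

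Purine and pyrimidine genes were more often lower than higher. Of 22 tested, 12 were lower and 2 higher (median -0.53, 3 lower with the run term, and 8 lower and 4 higher with total-count scaling). Ppat, which commits to purine synthesis, had 37.6, 32.8 and 41.0 CPM in Vec and 17.9, 20.7 and 16.5 CPM in oncogene livers (-1.02 ± 0.15, adjusted p = 0.000373). Paics, a later purine enzyme, fell by 0.80 ± 0.14 on the log2 scale. Dpyd, the rate-limiting enzyme of pyrimidine breakdown, was at 743, 565 and 743 CPM against 161, 128 and 198 CPM (-2.07 ± 0.21, adjusted p = 4.16e-05) and the uridine phosphorylase Upp2 was at 335, 414 and 753 CPM against 11.1, 40.9 and 57.4 CPM (-3.78 ± 0.60, adjusted p = 0.000695). The oncogene livers were lower than the Vec livers throughout for Ppat, Dpyd and Upp2. In polyamine metabolism 2 of 9 genes were higher and 4 lower, none with the run term, and the catabolic oxidase Smox rose by 3.05 ± 0.45.

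**Figure D3:**
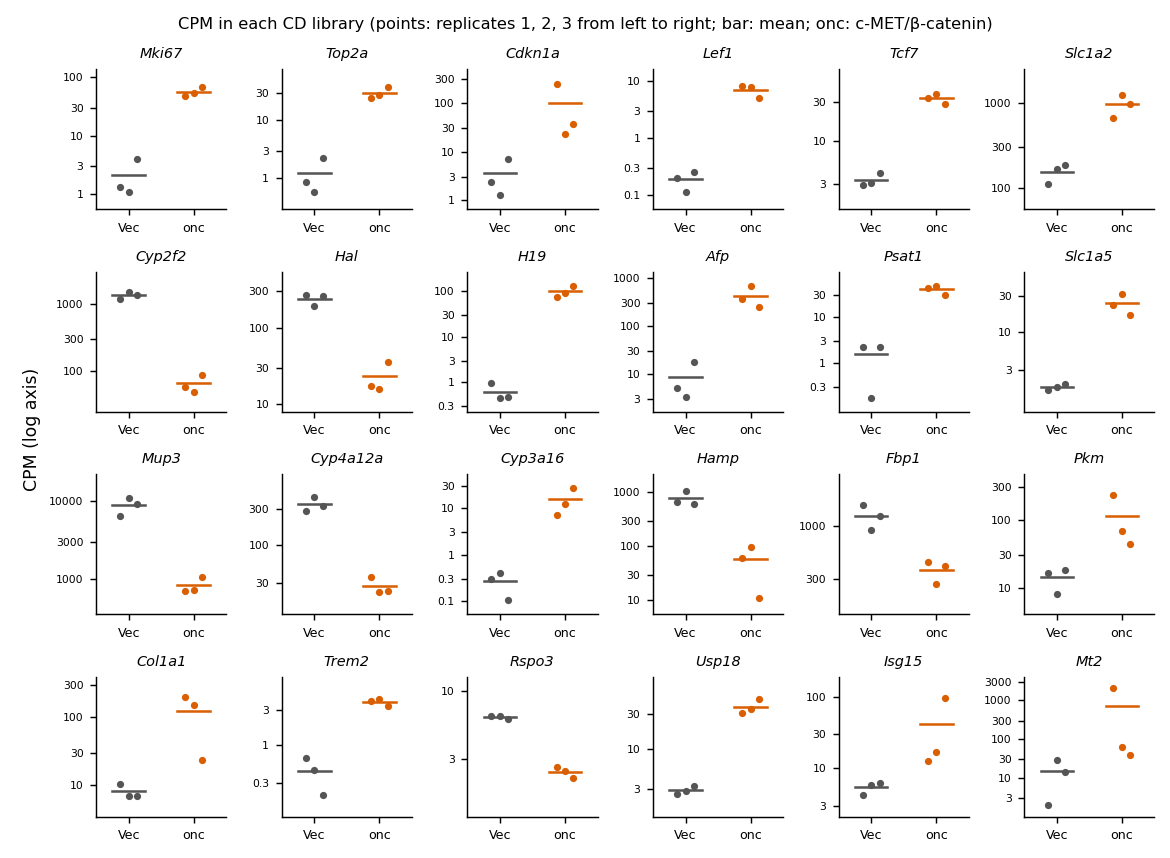
CPM (log axis) of 24 genes in each of the 6 CD libraries, Vec in grey and c-MET/β-catenin (onc) in orange, with replicates 1 to 3 from left to right and a bar at the mean. The 24 were picked with their values known, and the groups do not overlap in any of them, against 42.6% of all tested genes. Cdkn1a and Mt2 are far higher in c-MET/β-catenin replicate 1 and Isg15 in replicate 3 than in the other oncogene livers.

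Secreted products that mark the male liver fell steeply. Of 21 major urinary protein (Mup) genes, which carry pheromones, 17 were lower and none higher (median -4.37, 9 with the run term), and their share of all counts was 0.757% to 1.94% in Vec and 0.127% to 0.238% in oncogene livers. Mup3 had 6365, 11109 and 9176 CPM in Vec and 699, 727 and 1045 CPM in oncogene livers (-3.43 ± 0.28, adjusted p = 1.54e-05). The copies are near-identical and how reads matching several copies were counted is not stated, so the split among single Mup genes is uncertain. Male-biased genes of the liver fell in 10 of 12 cases (median -2.65, 4 with the run term). That count was 6 without c-MET/β-catenin replicate 1 or 2. Cyp4a12a, an arachidonate hydroxylase of males, had 279, 441 and 333 CPM in Vec and 37.0, 23.0 and 23.5 CPM in oncogene livers (-3.66 ± 0.26, adjusted p = 8.52e-06). In contrast, 9 of 11 female-biased genes rose and none fell (median 4.46, 6 with the run term), although all the mice were male. The female-biased cytochrome Cyp3a16 had 0.306, 0.398 and 0.104 CPM in Vec and 7.19, 12.4 and 26.7 CPM in oncogene livers (5.82 ± 0.72, adjusted p = 0.000149). A1bg, a plasma glycoprotein of females, had 1.22, 0.398 and 1.67 CPM against 8.95, 52.1 and 66.9 CPM (5.26 ± 0.91, adjusted p = 0.00128). Sex-biased expression separated the groups in these examples, and Vec replicate 1 was the lowest of its group in the male-biased list (a median of -1.02 on the log2 scale relative to the Vec mean).

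Pulsatile growth hormone sets this sex bias through its receptor and Stat5. Ghr, that receptor, had 786, 796 and 850.4 CPM in Vec and 152, 286 and 339 CPM in oncogene livers (-1.65 ± 0.25, adjusted p = 0.000477). Its output Igf1 had 698, 987 and 818 CPM against 514, 255 and 341 CPM (-1.17 ± 0.24, adjusted p = 0.00293), and Igfals, which holds Igf1 in the circulation, fell by 1.74 ± 0.26. Igfbp1, an Igf binding protein that rises with fasting and stress, had 9.17, 9.84 and 51.9 CPM against 2213, 570.2 and 386 CPM (5.48 ± 0.87, adjusted p = 0.000753). Receptor, hormone and binding protein were all separate between the groups. Over the list of 15, 4 were higher and 3 lower, with 1 higher with the run term.

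Hnf4a, a main regulator of hepatocyte identity, had 706, 1087 and 746 CPM in Vec and 864, 732 and 789.8 CPM in oncogene livers (-0.09 ± 0.18, adjusted p = 0.735). Of 18 factors, 7 were lower and none higher (median -0.54, 1 with the run term). Onecut1 (Hnf6) had 36.5, 87.6 and 68 CPM against 11.2, 8.0 and 10.1 CPM (-2.71 ± 0.54, adjusted p = 0.00268). Cebpa had 866, 756 and 686 CPM against 239, 418 and 373 CPM (-1.16 ± 0.19, adjusted p = 0.000615). The constitutive androstane receptor Nr1i3 (-1.33 ± 0.23) and the bile acid receptor Nr1h4 (-1.10 ± 0.18) fell as well. Onecut1 and Cebpa were lower in every oncogene liver, in contrast to Hnf4a.

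Abundant plasma proteins shifted modestly and in both directions, with 16 of 31 lower and 3 higher (median -0.44, 1 lower with the run term, and 9 lower and 5 higher with total-count scaling). Albumin, Alb, had 81036, 66859.9 and 72864 CPM in Vec and 68137, 60755 and 63324 CPM in oncogene livers (-0.20 ± 0.21, adjusted p = 0.495). Trf, the iron carrier transferrin, rose from 19609, 20596 and 22142 CPM to 41903, 28320.2 and 34267 CPM (0.74 ± 0.17, adjusted p = 0.00577). Apoe, a lipid carrier, fell from 26705, 31779.7 and 23074 CPM to 13575, 17879.6 and 17397 CPM (-0.74 ± 0.19, adjusted p = 0.00927). The groups overlapped in Alb and not in Trf or Apoe. Complement C9 (-2.27 ± 0.58) and apolipoprotein Apoa5 (-1.59 ± 0.25) fell more. The acute phase list did not move as a unit. Of 20 genes, 9 were higher and 1 lower, or 6 in all without Vec replicate 1 or Vec replicate 3, and 1 was called with the run term. Lcn2, which binds bacterial siderophores, had 4.48, 9.84 and 19.6 CPM in Vec and 859.7, 222 and 266 CPM in oncogene livers (5.31 ± 0.85, adjusted p = 0.000767). No Vec liver came near the lowest of these.

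Hepcidin, the hormone that blocks iron export, was among the strongest losses. Hamp had 668, 1077 and 608 CPM in Vec and 61.9, 97.8 and 11 CPM in oncogene livers (-3.79 ± 0.63, adjusted p = 0.000984). Its near copy Hamp2 had 156, 22.7 and 35.5 CPM against 0.116, 1.18 and 1.12 CPM (-6.53 ± 0.97, adjusted p = 0.000521). No oncogene liver came near the Vec range for either gene, although reads shared by the copies make the split uncertain. Of 12 genes of iron regulation 6 were lower and 1 higher (2 lower and 1 higher with the run term, and 3 lower and 2 higher with total-count scaling). The iron sensor Tfr2 fell by 0.75 ± 0.13, and Tfrc, which takes up transferrin, rose by 1.18 ± 0.31.

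Genes of drug and bile acid handling were more often called lower than higher, and many were not called. Of 20 genes of xenobiotic oxidation and conjugation, 9 were lower and 1, the dioxin receptor Ahr, higher (median -0.62, 2 lower and 1 higher with the run term), and of 16 UDP-glucuronosyltransferases 10 were lower and none higher (median -0.96, 2 with the run term). The carboxylesterase Ces2a had 233, 298 and 207 CPM in Vec and 15.7, 41.8 and 33.5 CPM in oncogene livers (-3.02 ± 0.31, adjusted p = 4.71e-05). Bile acid genes were lower in 9 of 18 cases and higher in 1 (median -0.45, 5 lower with the run term). Cyp8b1, which sets the cholic acid share, had 278, 412 and 417 CPM against 46.2, 31.4 and 59.5 CPM (-3.01 ± 0.27, adjusted p = 2.71e-05). Slc10a1, the uptake transporter NTCP, had 965, 711 and 700.3 CPM against 167, 189 and 171 CPM (-2.17 ± 0.18, adjusted p = 1.73e-05). These losses were present in each of the 3 livers. Cyp7a1, the rate-limiting enzyme of the pathway, did not pass (0.47 ± 0.44). With total-count scaling, 6 xenobiotic genes were lower and 2 higher, and 8 bile acid genes were lower and 2 higher. Other drug-handling families were mixed. Of 9 Cyp3 cytochromes 4 were higher and 2 lower (median 1.89), and of 20 glutathione S-transferases 5 were higher and 4 lower (median 0.34). Among Nrf2 targets and pentose phosphate genes, 8 of 15 were higher and none lower, 5 with the run term. That count was 3 without Vec replicate 2 or c-MET/β-catenin replicate 3 and 5 without Vec replicate 3. Gstm3, a glutathione transferase, rose by 3.86 ± 0.57, and Srxn1, which repairs peroxiredoxins, by 2.46 ± 0.32.

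Respiratory chain genes fell as a group. Of 49 nuclear genes of complex I, subunits and assembly factors such as Ndufaf4 together, 38 were lower and 1 higher (median -0.75). Of 37 subunits of complexes III to V, 32 were lower and none higher (median -0.77). With the run term 4 of each were called lower, and with total-count scaling 26 of each were. Most falls were small, and members ranged from -1.55 to 1.81 for complex I and from -1.02 to 0.97 for complexes III to V. Ndufv1, which accepts electrons from NADH, had 234, 238 and 217 CPM in Vec and 125, 130.1 and 135 CPM in oncogene livers (-0.82 ± 0.10, adjusted p = 0.000155). Uqcrc1, of complex III, had 381, 393 and 346 CPM against 183, 188 and 218 CPM (-0.93 ± 0.12, adjusted p = 0.000174). The replicates of a group lay close together and the groups were wide apart. The genes of the mitochondrial genome itself followed, with 9 of 12 lower (median -1.05, 1 with the run term) and a share of all counts of 4.53% to 4.95% in Vec and 3.07% to 3.27% in oncogene livers. Mitochondrial ribosomal proteins were lower in 30 of 77 cases and higher in 1 (median -0.35, 1 each way with the run term, and 8 lower and 3 higher with total-count scaling). Of 16 peroxisome biogenesis genes, 12 were lower (median -0.62, none with the run term and 5 with total-count scaling).

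Hepatic enzymes of glucose metabolism fell. Of 11 genes of gluconeogenesis and glycogen, 8 were lower and none higher (median -0.99, 1 with the run term and 5 with total-count scaling). That count was 5 without Vec replicate 1 or c-MET/β-catenin replicate 2. Fbp1, which controls gluconeogenesis, had 1603, 908 and 1242 CPM in Vec and 438, 269.9 and 398 CPM in oncogene livers (-1.76 ± 0.24, adjusted p = 0.000264). Among glycolytic genes, 10 of 21 were higher and 3 lower (median 0.51, 1 higher with the run term). Those that fell included the liver pyruvate kinase Pklr (-1.76 ± 0.36) and the hepatic glucose transporter Slc2a2 (-1.52 ± 0.21). Pkm, the pyruvate kinase of other tissues and tumors, had 16.7, 8.19 and 18.2 CPM against 232, 67.4 and 43.7 CPM (2.99 ± 0.55, adjusted p = 0.0018). Ldhb, a lactate dehydrogenase subunit, had 1.32, 0.739 and 1.09 CPM against 6.5, 11.7 and 9.36 CPM (3.11 ± 0.31, adjusted p = 3.68e-05) and was the 1 member called with the run term. Oncogene and Vec livers did not overlap in Fbp1, Pkm or Ldhb, and c-MET/β-catenin replicate 1 was the highest for Pkm by a wide margin. Eno1, the enolase shared by most cells, was not called (-0.39 ± 0.20). Of 9 hypoxia-inducible genes 3 were higher and 1 lower, none with the run term, or 2 in all without Vec replicate 2.

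In lipid metabolism, synthesis genes differed as much among the Vec livers as between the groups. Of 19 genes, 8 were lower and 1 higher (median -1.33, 1 lower with the run term and 4 with total-count scaling). That count of 9 was 5 without Vec replicate 1, 15 without Vec replicate 2 and 4 without c-MET/β-catenin replicate 1. Fasn, fatty acid synthase, had 2901, 330.0 and 734 CPM in Vec and 212, 474 and 622 CPM in oncogene livers (-1.60 ± 0.65, adjusted p = 0.0754), and was called lower without Vec replicate 2 (-2.07, adjusted p = 0.0163). Thrsp, a lipogenic regulator, was even in Vec livers at 2267, 2029 and 1656 CPM and fell to 91.7, 247 and 179.8 CPM (-3.52 ± 0.37, adjusted p = 5.09e-05). Scd2, the desaturase isoform of nonhepatic tissues, was the member that rose, from 43.0, 2.33 and 9.16 CPM to 95.8, 197 and 188 CPM (3.14 ± 0.81, adjusted p = 0.0113). The groups overlapped in Fasn and were separate in Thrsp and Scd2. Fatty acid oxidation and ketone synthesis fell slightly, with 13 of 23 lower and 1 higher (median -0.52, 1 lower with the run term, and 5 lower with total-count scaling). Pdk4, a kinase that closes pyruvate dehydrogenase, was the member that rose (3.81 ± 0.64).

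Cholesterol synthesis rose. Of 21 genes, 12 were higher and none lower (median 1.05), and 1 was called with the run term. Hmgcs1, at the start of the pathway, had 242, 80.5 and 208 CPM in Vec and 383, 764 and 804 CPM in oncogene livers (1.88 ± 0.39, adjusted p = 0.00326). Sqle, which oxidizes squalene, had 41.6, 37.8 and 69.9 CPM against 149, 169 and 169.8 CPM (1.71 ± 0.31, adjusted p = 0.00145). Srebf2, the transcription factor of the pathway, had 48.4, 28.4 and 59.3 CPM against 103, 123 and 99.5 CPM (1.26 ± 0.21, adjusted p = 0.000846). All 3 were higher in every oncogene liver.

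Genes of the circadian system differed between the groups and within the oncogene group. Of 16 tested, 8 were lower and 2 higher (median -0.87, 5 lower with the run term, and 4 lower and 3 higher with total-count scaling), and 6 were called without Vec replicate 3. Dbp, a rhythmic transcription factor, had 152, 120.5 and 148 CPM against 6.76, 130.1 and 23.8 CPM (-1.39 ± 0.73, adjusted p = 0.162), and Arntl (Bmal1), which cycles in antiphase to it, had 1.38, 1.59 and 1.82 CPM against 33.5, 2.20 and 16.6 CPM (3.45 ± 0.76, adjusted p = 0.00467). In both genes c-MET/β-catenin replicate 2 was near the Vec livers, and without it Dbp was called lower (-3.20, adjusted p = 0.000536). The study's methods state that mouse experiments were done in the early afternoon after a fast, and the part of clock time in these values was not tested.

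Markers of other liver cells also differed. All 10 markers of monocyte-derived macrophages were higher (median 2.36, 6 with the run term), and their summed level was 35 to 52.3 CPM in Vec and 193 to 240.4 CPM in oncogene livers. Trem2, a lipid receptor of such macrophages, had 0.662, 0.455 and 0.208 CPM in Vec and 3.96, 4.24 and 3.37 CPM in oncogene livers (3.11 ± 0.38, adjusted p = 0.000121). Lyz2, the lysozyme of myeloid cells, had 29.8, 20.1 and 35.1 CPM against 109, 123 and 92.0 CPM (1.93 ± 0.22, adjusted p = 7.55e-05). Most of the summed level came from Lyz2 and Cd9, which had a mean of 11.5 CPM in Vec and 62.2 CPM in oncogene livers. Of 9 markers of resident Kupffer cells 1 was higher, none with the run term and 4 with total-count scaling, or 0 to 4 as single libraries were left out, and the summed ranges overlapped (108 to 249 and 187 to 336 CPM). Clec4f, specific to Kupffer cells in the liver, had 60.2, 42.7 and 84.4 CPM in Vec and 50.9, 41.8 and 93.2 CPM in oncogene livers. The monocyte attractant Ccl2 had 0.204, 0.171 and 0.312 CPM against 6.15, 6.4 and 1.87 CPM (4.36 ± 0.79, adjusted p = 0.00133), and of 18 chemokines 11 were higher and 1 lower (median 2.02, 5 higher with the run term). Neutrophil markers were low, and 5 of 11 passed the filter. Of these 4 were called higher, 1 with the run term, with summed levels of 3.72 to 5.62 CPM in Vec and 13.2 to 20.9 CPM in oncogene livers over the whole list. The defining gene Ly6g was at 0 in all 6 libraries, and the untested Retnlg had 1, 3 and 4 counts in Vec livers and 78, 5 and 3 counts in oncogene livers. The granule gene Ngp had 0 counts in the Vec livers and was at least 9.70-fold higher in the oncogene livers, against a floor of 3 counts per library. Of 13 T and NK cell markers 3 were higher and 1 lower (1 higher with the run term), and of 6 B cell markers 0 were called by edgeR or DESeq2 (0 at an unadjusted p under 0.05). Erythroid markers were higher in 4 of 5 cases (1 with the run term), with summed levels of 169 to 221 CPM in Vec and 79.4 to 278 CPM in oncogene livers, and exocrine pancreas markers in 1 of 2 cases (none with the run term), with 25.4 to 56.4 CPM and 73.8 to 108 CPM and 5 of 9 at 0 throughout. The part of cell composition in the results above was not tested.

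Endothelial markers moved in both directions. Of 11 markers of sinusoidal endothelium, 6 were lower and none higher (median -0.79, 2 with the run term), with summed levels of 172 to 263 CPM in Vec and 142 to 196 CPM in oncogene livers. Those that fell included the signals that pattern the central vein region. Rspo3, which strengthens Wnt signals, had 6.47, 6.48 and 6.09 CPM in Vec and 2.6, 2.41 and 2.13 CPM in oncogene livers (-1.41 ± 0.20, adjusted p = 0.000274). The ligand Wnt2 had 4.13, 2.62 and 5.21 CPM against 0.982, 1.22 and 1.27 CPM (-1.78 ± 0.37, adjusted p = 0.00292). Bmp2, the endothelial signal for hepcidin, had 16.8, 14.6 and 17.6 CPM against 6.53, 5.59 and 3.63 CPM (-1.63 ± 0.26, adjusted p = 0.000553). All 3 ligands were lower in every oncogene liver. In the list of other endothelial markers, 4 of 9 were higher and none lower, with 2 higher and 1 lower with the run term. They included Cd34, a marker of capillary endothelium, at 1.73, 1.02 and 1.46 CPM against 7.88, 6.77 and 6.21 CPM (2.30 ± 0.32, adjusted p = 0.000251), and the angiogenic tip cell gene Esm1 (3.83 ± 0.69).

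Extracellular matrix rose in 15 of 19 genes and fell in 1 (median 2.23), but 1 was called higher with the run term. Col1a1, fibrillar collagen, had 10.4, 7.05 and 6.93 CPM in Vec and 195, 151 and 23.2 CPM in oncogene livers (3.92 ± 0.65, adjusted p = 0.000985). Tnc, tenascin C, had 0.408, 0.967 and 0.729 CPM against 19.4, 29.7 and 3.29 CPM (4.64 ± 0.79, adjusted p = 0.00106). In both genes replicate 3 was the lowest oncogene liver, yet above all Vec livers. It also had the lowest median of the matrix list among the oncogene livers, and it alone of them informs the contrast with the run term. Dcn, the proteoglycan decorin, was the member that fell (-1.30 ± 0.19). Markers of stellate cells, the main matrix producers, split evenly. Of 11 tested, 3 were higher and 3 lower (1 lower with the run term), with summed levels of 91.6 to 164 CPM in Vec and 167 to 310.3 CPM in oncogene livers. The retinol storage enzyme Lrat fell by 1.42 ± 0.29 on the log2 scale, and Acta2, smooth muscle actin, had 1.58, 1.36 and 3.80 CPM against 30.6, 15.4 and 5.02 CPM (2.91 ± 0.69, adjusted p = 0.00686). Cytoskeletal genes of epithelial cells rose as well, with 4 of 7 keratins higher and 1 lower (2 higher with the run term). Krt8, a keratin of hepatocytes, had 223, 229 and 214 CPM against 1942, 696 and 613 CPM (2.29 ± 0.37, adjusted p = 0.000705). Of the calcium-binding annexins 7 of 11 were higher and 1 lower (3 higher with the run term), led among those named here by Anxa2 (4.06 ± 0.50), and of S100 proteins 6 of 9 were higher and 2 lower (1 each way with the run term), such as S100a11 (3.16 ± 0.43).

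Interferon-stimulated genes rose in 17 of 21 cases and fell in none (median 2.08), and 18 were called with the run term. Without single libraries 12 to 20 were called, the fewest without c-MET/β-catenin replicate 3. That liver had the highest median of this list and is the only oncogene liver that informs the contrast with the run term. The count with that term is thus no separate check. Usp18, which restrains the interferon receptor, had 2.55, 2.84 and 3.28 CPM in Vec and 30.3, 34.8 and 46.2 CPM in oncogene livers (3.68 ± 0.27, adjusted p = 9.66e-06). Isg15, a ubiquitin-like modifier, had 4.23, 5.91 and 6.20 CPM against 12.8, 16.8 and 94.3 CPM (2.92 ± 0.65, adjusted p = 0.00528). Oas1a, a sensor of double-stranded RNA, had 1.38, 0.739 and 2.08 CPM against 8.40, 16.3 and 55.9 CPM (4.25 ± 0.66, adjusted p = 0.000568). Usp18 was even among the oncogene livers, whereas Isg15 and Oas1a were highest in replicate 3. Of 13 genes of antigen presentation 4 were higher and none lower (30.8% called, median 0.45, none with the run term), with 1 called without Vec replicate 2 or c-MET/β-catenin replicate 2 and 2 without Vec replicate 1 or c-MET/β-catenin replicate 1. In the family of 23 MHC genes 9 were higher and 2 lower (47.8% called, median 0.89, 1 higher with the run term), and 7 were called without c-MET/β-catenin replicate 2.

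In ribosome biogenesis 0 of 15 genes passed by edgeR and 0 by DESeq2, 2 at an unadjusted p under 0.05 by edgeR, although 2, 2 and 3 did without Vec replicate 1, 2 or 3. Of 39 proteasome subunits 3 were higher (7.69% called, none with the run term, 15 higher with total-count scaling), and of 307 Zfp zinc finger genes 27 were higher and 37 lower (1 each way with the run term), or, with total-count scaling, 63 higher and 10 lower, where 32.0% and 8.61% of all genes were. Cytosolic ribosomal proteins had a median of 0.34, with 17 of 74 higher and 1 lower, none with the run term. That count depended on scaling, being 62 higher with total counts only, and on single livers, at 6 to 63 called with 1 library left out. For the Zfp genes 37 to 57 were called with 1 library left out, the fewest without c-MET/β-catenin replicate 2. Among 6 tested cholangiocyte markers, 1 was higher, also with the run term, the ductal keratin Krt19, at 0.764, 0.739 and 0.781 CPM in Vec and 3.67, 6.57 and 7.04 CPM in oncogene livers (2.91 ± 0.32, adjusted p = 7.05e-05). A second cholangiocyte marker was called without c-MET/β-catenin replicate 1.

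The 3 oncogene livers were not alike in every respect. In the plot of lists by library, c-MET/β-catenin replicate 1 had the highest glycolysis median (1.05 on the log2 scale relative to the Vec mean, against -0.08 and 0.12 in replicates 2 and 3) and the highest for hypoxia-inducible genes (1.06, against 0.03 and 0.20). The matrix list had 2.72, 2.16 and 0.61 in replicates 1 to 3, and the interferon list 1.09, 1.18 and 2.92. The genes with the widest range among these 3 livers were named by rule. Mt2, a metal-binding metallothionein, had 2031, 64.2 and 38.2 CPM, highest in replicate 1. Against Vec livers, Mt2 was no longer called without that liver (1.76, adjusted p = 0.233 by edgeR). The call was also lost without Vec replicate 1 (adjusted p = 0.0605 by edgeR) or Vec replicate 3 (adjusted p = 0.0614 by edgeR). Ifi44, an interferon-stimulated gene, had 2.92, 7.87 and 53.5 CPM, highest in replicate 3. These differences are single livers and carry no test. Among the Vec livers, replicate 2 had the highest medians for the unfolded protein response (0.95) and for ribosome biogenesis (0.75), and replicate 1 for fatty acid synthesis (1.24).

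**Figure D4:**
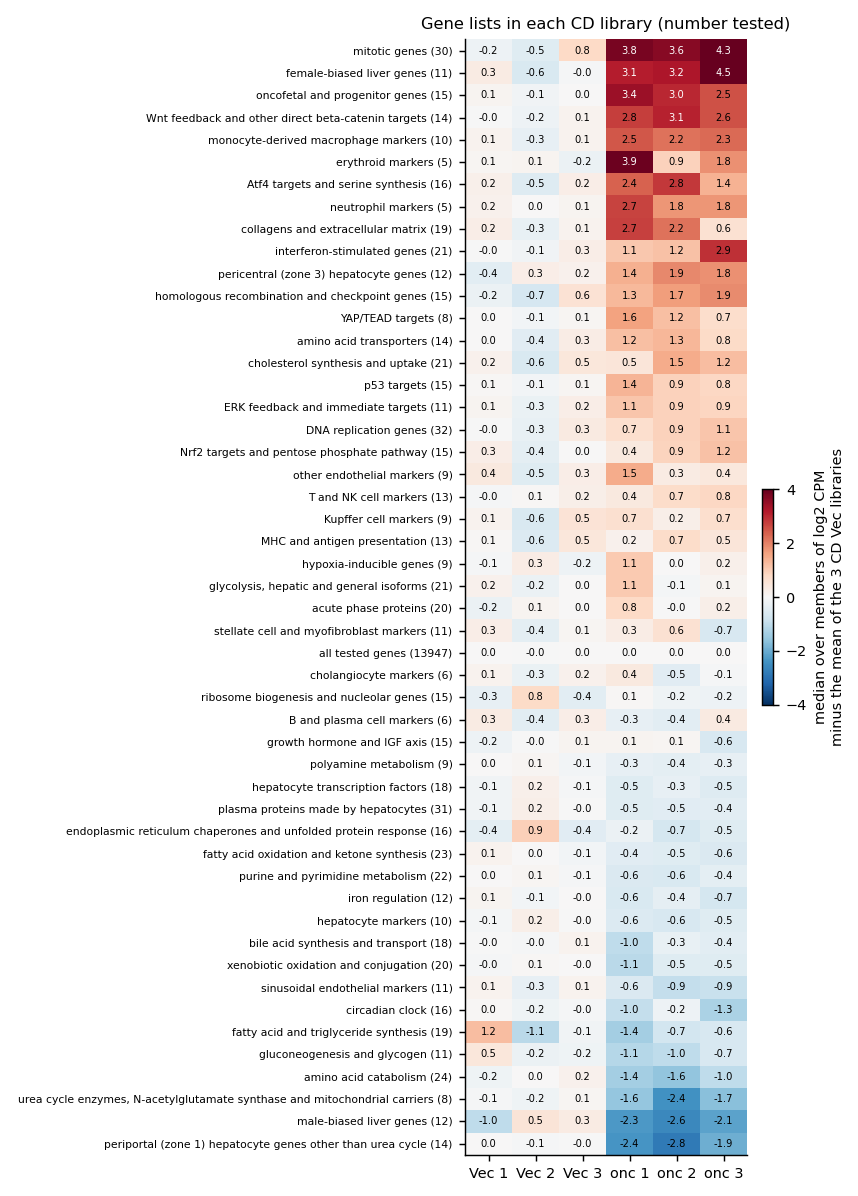
Median over the tested members of each gene list of log2 CPM minus the mean of the 3 CD Vec libraries, for each of the 6 CD libraries (columns), from blue (-4) to red (4), with the value printed in each cell. Mitotic genes are at 3.6 to 4.3 in the 3 c-MET/β-catenin (onc) livers, whereas the matrix, glycolysis, hypoxia and interferon lists differ among them, and Vec replicates 1 and 2 stand apart in a few lists.

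The same contrast on LPD gave fewer calls. There 161 genes were called higher (1.15%) and 23 lower (0.165%), against Vec livers on LPD. LPD livers were also taken at the end point of the CD c-MET/β-catenin mice, when the study reports a reduced tumor burden on LPD. The LPD c-MET/β-catenin libraries all lie in the run that holds replicate 3 of the CD groups. The part of tumor load and of run in the diet differences was not tested. The difference between the diets was tested as an interaction, and 1243 genes (8.91%) were called, of which 1210 were among those called on CD (24.5% of these). The corresponding count was 75 in the model with the run term and 788 with the replicate block. In the cholesterol list, all 12 genes called higher on CD had a called interaction, and the median log2 fold change was 1.05 on CD and -1.54 on LPD. Sqle changed by 1.71 on CD and its interaction was -3.55. The interaction was called for 9 periportal and 6 male-biased genes, each of which fell on CD and had a higher value on LPD, except Cdh1, which rose on CD. Cyp2f2 fell by 4.39 on CD with an interaction of 4.46. The median of the periportal list was -2.27 on CD and 0.00 on LPD. For mitosis the medians were 4.10 and 2.10, and the interaction was called for 4 of the 30, among them Top2a (-2.74). In the Wnt list the medians were 2.73 and 1.25, with 5 interactions called, and in the pericentral list 1.61 and 1.37, with 1 called, Glul (-1.39). A missing interaction call does not show that the effects were the same.

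**Figure D5:**
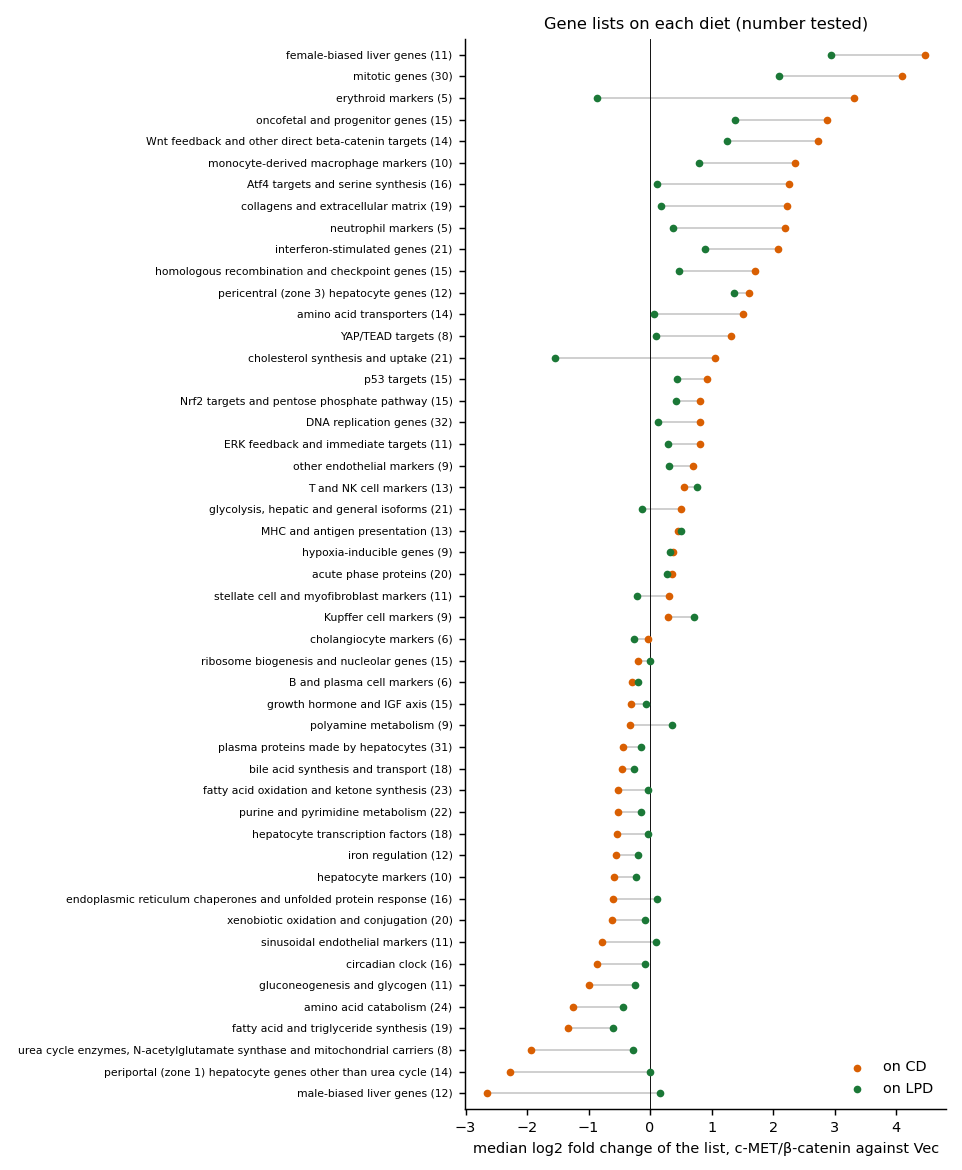
Median log2 fold change of each gene list, oncogene livers against Vec livers, on CD (orange) and on LPD (green), joined by a line, with the number of genes tested in brackets. The periportal and male-biased lists are near 0 on LPD (0.00 and 0.16) and at -2.27 and -2.65 on CD, while the cholesterol list changes sign between the diets.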

How the data were processed

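Total RNA of 12 whole livers was sequenced, and all 12 libraries entered the fit, 3 per group. The table deposited by the authors holds raw read counts of 27179 genes, made with HISAT2 on mm10 and featureCounts (versions and the handling of strand and multimapped reads are not given in the sources used here). The labels state ribosomal RNA depletion and the methods state mRNA selection. Columns were assigned to samples by the column names in the labels, where the HPD columns carry chow titles. The study uses HPD for a high-protein diet distinct from chow, so column names and titles conflict. The titles were followed here. The table pairs no symbols with its Entrez numbers, and 93.1% were matched to RefSeq names or, for 18 genes, to GENCODE names.

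Genes were filtered by expression (13947 kept), scaled by trimmed mean (TMM) and fitted by the robust quasi-likelihood method of edgeR (4.0.16, R 4.3.3) with a coefficient per group. Calls required a Benjamini-Hochberg adjusted p under 0.05 over all tested genes. CPM are TMM-scaled, changes are log2 fold changes ± SE, and interactions are the LPD minus the CD fold change. Reads are not molecules with identifiers, so the floor of 3 counts covers counting error only. DESeq2 (1.42.0) was an alternative, and 14 alternatives were run in all. The scripts were tested on simulated data. Same-numbered livers were not paired, since their deviations correlated at -0.01, 0.03 and 0.07.

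Named genes came from 51 gene lists, from the 15 largest rises and 15 largest falls at a mean of at least 5 CPM without overlap, from the 10 largest changes each way per kilobase of exon, and from the 8 widest ranges among the oncogene livers. Family members, Met and Ctnnb1 were named after their values were seen, as were the examples in each list. The comparison and the lists were chosen with earlier results of these data known. Values of some list members are not reported here.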

Additional observations from a re-analysis of the deposited data

Results flagged for a closer look

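Of the genes named above, those listed here had an oncogene effect that differed between the diets by the interaction test of edgeR (adjusted p under 0.05). Each value is the log2 fold change on LPD minus that on CD. Over all genes, 1210 were called both on CD and for the interaction, against 75 in the model with the run term. A negative value marks a smaller rise, or a fall, on LPD. Genes that kept the interaction call with the run term are not marked. The part of tumor load and of run in these differences was not tested.

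Among genes that rose on CD, the proliferation genes Top2a (-2.74), Kif11 (-1.84) and Rrm2 (-2.24) had smaller rises on LPD. The Wnt and pericentral genes were Tcf7 (-3.06), Znrf3 (-0.81) and Glul (-1.39). For amino acid synthesis and transport the values were -4.29 for Psat1, -4.28 for Asns, -2.94 for Mthfd2, -1.55 for Slc1a5 and -2.10 for Slc7a5. Cholesterol genes gave -3.94 for Hmgcs1, -3.55 for Sqle and -2.07 for Srebf2. Epithelial, fetal and stress genes were H19 (-5.13), Krt8 (-2.37), Krt19 (-3.10), Cdh1 (-2.03), Car2 (-2.01), S100a11 (-2.78), Igfbp1 (-4.62), Pdk4 (-3.54), Srxn1 (-1.96) and Ahr (-2.14). Matrix, vessel, macrophage and interferon genes were Col1a1 (-3.53), Tnc (-4.52), Cd34 (-1.57), Lyz2 (-1.09), Trem2 (-2.52) and Usp18 (-1.42).

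Among genes that fell on CD, the periportal and amino acid genes were Cyp2f2 (4.46), Hal (3.05), Gls2 (2.97), Gldc (2.29), Tdo2 (1.79), Aass (1.77) and Slc38a4 (1.04). Nucleotide and replication genes were Upp2 (2.82), Dpyd (1.67), Ppat (0.80), Paics (0.73) and Mcm10 (3.07). Hormone-dependent and secreted products were Mup3 (3.46), Cyp4a12a (3.76), Ghr (1.29), Igfals (2.21), Hamp (3.56), Hamp2 (4.55) and Apoa5 (1.70). The transcription factors were Onecut1 (3.72), Cebpa (1.01) and Nr1h4 (0.94). Metabolic genes were Ces2a (2.85), Cyp8b1 (1.54), Slc10a1 (1.43), Thrsp (2.14), Fbp1 (1.25), Uqcrc1 (0.74) and Ndufv1 (0.68), and stromal and endothelial genes were Bmp2 (1.64), Rspo3 (1.31) and Dcn (1.13).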

How the results depend on the processing

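The 4933 calls on CD were 3014 with the CD groups alone and 945 with the run term, and 4251 to 4821 without single libraries. The 2659 calls of at least 2-fold were 1548 with a minimum of 5 CPM in 3 libraries, 854 with the run term, and 2392 to 2830 without single libraries. The 1210 genes called on CD whose effect differed on LPD were 1933 by DESeq2, 75 with the run term, 788 with the replicate block, and 910 to 1367 without single libraries. The replicate block gave 4520 calls on CD. Of the 135 genes named, 43 were no longer called with the run term and 88 stayed on their side of the threshold with the same sign. The causes were not tested. The changes of sign were all in genes that had not been called. With total counts only Alb was 0.08, Hnf4a 0.21, Met 0.02 and Clec4f 0.27. With the run term Cyp7a1 was -0.01, Hnf4a 0.10, Myc -0.65 and Clec4f 0.31, and with the 5 CPM minimum Clec4f was 0.03. Without single libraries Hnf4a ranged from -0.20 to 0.12, Pcna from -0.09 to 0.26 and Clec4f from -0.43 to 0.27. With 3 livers a group, a gene that missed the threshold is not shown to be unaltered.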
